A study of Homo sapiens with 6 samples.

Results

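The human mitochondrial genome encodes 13 mRNAs for subunits of the respiratory chain and ATP synthase, 2 rRNAs and 22 tRNAs, and these 37 genes were read from the RNA-seq table of PQBP1-depleted HEY cells. They are all rows whose gene name starts with MT-, 37 of the 32679 rows of the table, and each matched a gene of the mitochondrial chromosome in GENCODE release 44, which lists 37. All of them passed the filter on low values (6-sample mean of 1 FPKM or more), as did 11413 genes in all. HEY is an established ovarian cancer cell line, and its 3 control samples carried a control hairpin (shNC) and had no treatment. The 3 knockdown samples carried a hairpin against the splicing factor PQBP1 (shPQBP1) and were treated with doxycycline at 1 µg per ml. Every sample is labelled day 3. Both hairpins were delivered by lentivirus and the cells selected with puromycin. The labels thus give the drug to the knockdown samples alone. Doxycycline is a tetracycline, a class of antibiotics known to act on the mitochondrial ribosome, so that in this design an effect of the drug and an effect of PQBP1 loss cannot be told apart.

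FPKM, the deposited unit, divides the fragments of a gene by its transcript length and by the sample's mapped fragments. Summed over the whole table, FPKM came to between 294970 and 318484 with shNC and between 278286 and 287423 with shPQBP1. The number of reads behind a value is unknown, so errors are taken from the spread between the 3 samples per group. In the limma fit this spread is moderated by that of all genes tested, and the p-values set each difference against it. PQBP1 had 7.18, 6.67 and 6.93 FPKM with shNC and 1.68, 1.72 and 1.44 FPKM with shPQBP1. The epithelial keratins KRT7, KRT8 and KRT18 lay between 52.8 and 94.6 FPKM. The Mullerian factor PAX8 lay between 12.3 and 24.1 FPKM and was higher in every shPQBP1 sample (limma-adjusted p = 0.102). The other epithelial and Mullerian markers were low. KRT19 had 1.19 to 2.1 FPKM, and the untested EPCAM and WT1 had 0.79 to 1.13 and 0.31 to 0.71 FPKM. WT1 was lower in every shPQBP1 sample. MUC16 did not exceed 0.01 FPKM, and the leukocyte gene PTPRC was listed at 0 in every sample. Of the blood, endothelial and fibroblast markers only CD68 and CDH5 were high enough to be tested. CD68, a macrophage marker, had 9.12 to 21.2 FPKM with overlapping groups (limma-adjusted p = 0.531). CDH5, an endothelial cadherin, had 2.11 to 3.64 FPKM and was higher in every shPQBP1 sample (limma-adjusted p = 0.151). The untested PECAM1 and COL1A1 did not exceed 0.47 FPKM and were lower in every shPQBP1 sample. The part of such cells in the mitochondrial values was not tested.

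Mitochondrial DNA is a small circle that is transcribed from both strands into long precursor RNAs. The transcript of the heavy strand begins just before MT-TF and carries both rRNAs, 12 of the mRNAs and 14 tRNAs. The transcript of the light strand carries MT-ND6 and 8 tRNAs. The tRNAs lie between the other genes like punctuation marks, and their excision by RNase P and ELAC2 frees the mRNAs and rRNAs. Most of the mRNAs then receive a poly(A) tail, the rRNAs receive a few adenosines, MT-ND6 is known to carry little or no tail, and the tRNAs receive the bases CCA. The libraries were made from RNA purified on poly-T beads, which do not select mature tRNAs, rRNAs or MT-ND6 RNA by a long tail. How far the rows of these genes hold such RNA, or longer RNA that runs across them, is not known.

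The arrangement can be read from the sequence. Of the 36 pairs of neighbouring genes, 25 had no base between them, and 14 of the 15 mRNA and rRNA genes touched or neighboured a tRNA gene. The tRNA genes with the largest falls are shown first, followed by 3 light-strand tRNA genes whose groups overlapped, with each gene in capitals and its flanks in lower case. Sequences are from hg38, 5′ to 3′ on the strand of the gene.

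MT-TF with the 60 bases before it and the first 30 of MT-RNR1 (chrM:517-677, plus strand): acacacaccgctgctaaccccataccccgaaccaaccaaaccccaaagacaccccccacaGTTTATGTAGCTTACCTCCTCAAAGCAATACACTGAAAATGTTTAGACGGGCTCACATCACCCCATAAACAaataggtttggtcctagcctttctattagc
MT-TV (chrM:1592-1680, plus strand): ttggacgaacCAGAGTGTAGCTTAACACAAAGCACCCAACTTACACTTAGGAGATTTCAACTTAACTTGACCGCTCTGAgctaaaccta
MT-TT (chrM:15878-15963, plus strand): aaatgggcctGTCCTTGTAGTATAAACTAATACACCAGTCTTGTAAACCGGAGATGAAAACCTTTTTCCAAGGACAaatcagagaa
MT-TN (chrM:5647-5739, minus strand): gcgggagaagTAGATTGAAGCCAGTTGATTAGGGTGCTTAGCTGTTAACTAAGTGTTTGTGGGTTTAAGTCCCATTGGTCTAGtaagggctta
MT-TC (chrM:5751-5836, minus strand): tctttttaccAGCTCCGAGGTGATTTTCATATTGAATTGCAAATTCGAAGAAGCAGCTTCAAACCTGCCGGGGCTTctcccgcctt
MT-TP (chrM:15946-16033, minus strand): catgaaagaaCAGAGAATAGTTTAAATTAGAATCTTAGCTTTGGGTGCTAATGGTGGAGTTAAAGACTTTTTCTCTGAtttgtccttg

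The mitochondrial genes took up a smaller part of the RNA with shPQBP1. They held 35.1%, 33.5% and 35.8% of the summed FPKM with shNC and 29.9%, 30.5% and 28.9% with shPQBP1. The means were 34.8 ± 1.17% and 29.7 ± 0.813% (SD, n = 3 per group). The groups did not overlap. In bulk RNA, fewer mitochondria or genome copies per cell and less RNA from each cannot be told apart. Multiplied by gene length, the same values correspond to 7.27% to 8.09% of the mapped fragments with shNC and 5.89% to 6.28% with shPQBP1. The summed FPKM of all other genes was 199340 ± 6281 with shNC and 198705 ± 1024 with shPQBP1 and overlapped between the groups, so that the lower total of the shPQBP1 samples lay almost wholly in the mitochondrial rows.

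**Figure D1:**
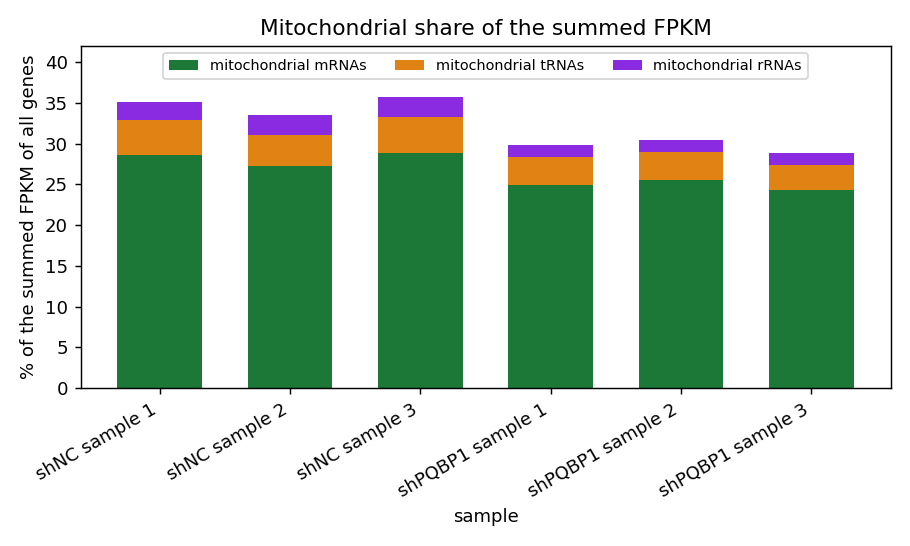
Share of the summed FPKM of all genes (%, bars from 0) held by mitochondrial mRNAs, tRNAs and rRNAs in each of the 6 samples. The 3 shPQBP1 bars end at 28.9% to 30.5% and the 3 shNC bars at 33.5% to 35.8%.

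On the log2(FPKM + 0.1) scale, 36 of the 37 genes were lower with shPQBP1, by a median of -0.53, where the median of all 11413 genes tested was 0.02. At a limma-adjusted p under 0.05, 15 of the 37 fell and none rose (2 rose under quantile normalization, MT-ND4 and MT-TC), against 1.18% of all genes tested that fell. Both rRNAs, 3 of the 13 mRNAs and 10 of the 22 tRNAs were among the 15. Every shPQBP1 sample lay below every shNC sample in 30 of the 37 genes, against 17.1% of all genes tested. A change of the same direction in nearly every gene was thus joined to sizes that differed among the genes, from -1.89 to 0.02. With 1 sample left out, the number of genes called lay between 4 (without any of the shPQBP1 samples) and 14 (without shNC sample 2), and was 6 without shNC sample 3 and 12 without shNC sample 1. Over all genes tested, 135 were called lower in the main fit, 170 without shNC sample 1, 32 without shNC sample 2 and 16 without shNC sample 3. Without a shPQBP1 sample that number lay between 13 and 19. MT-TF, MT-RNR1, MT-TV and MT-RNR2, the first 4 genes of the heavy-strand transcript, were called in each of these 6 fits. The other called genes lost the call when any of the shPQBP1 samples was left out.

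**Figure D2:**
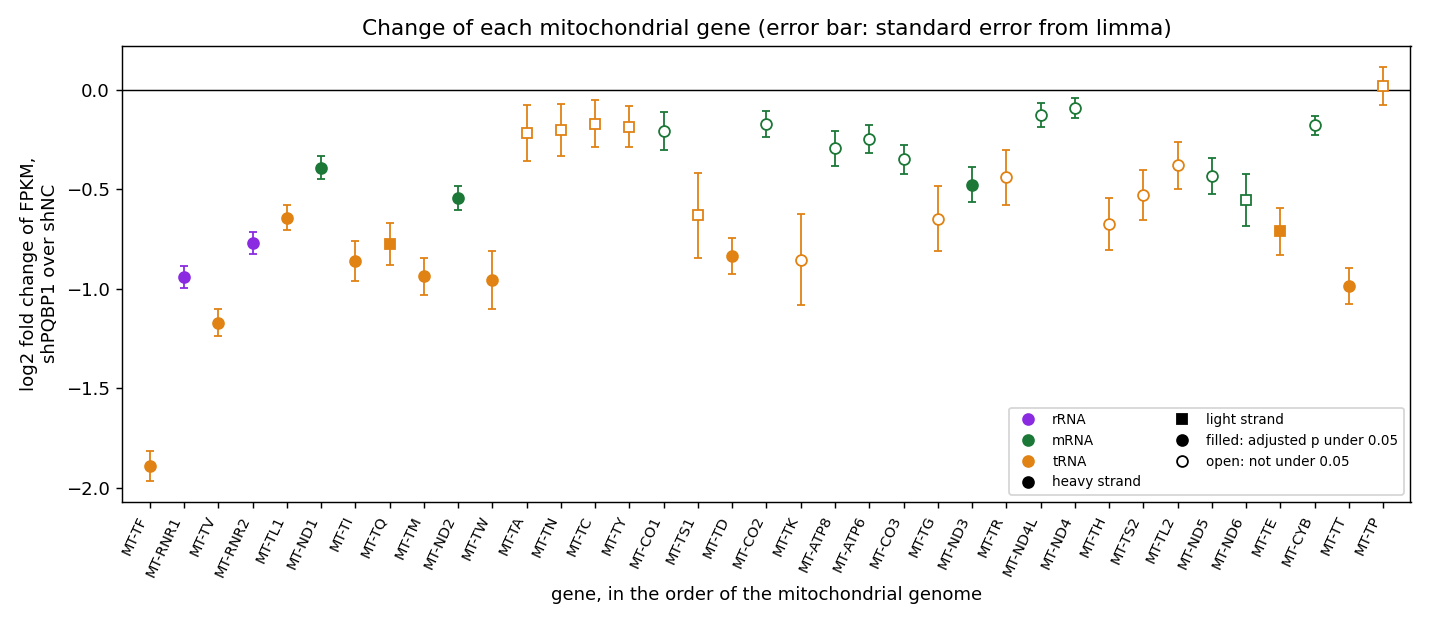
Log2 fold change of FPKM, shPQBP1 over shNC, of each mitochondrial gene in genome order, with the standard error from limma (n = 3 per group), coloured by RNA class, with circles for heavy-strand and squares for light-strand genes and filled symbols for an adjusted p under 0.05. The lowest point is MT-TF at -1.89, the rRNAs lie at -0.94 and -0.77, and the only point above 0 is MT-TP at 0.02.

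The rRNAs of the mitochondrial ribosome fell more than any mRNA. MT-RNR1 (ENSG00000211459, chrM:648-1601), the 12S rRNA of the small subunit, had 1993, 1880 and 2030 FPKM with shNC and 1024, 1041 and 1008 FPKM with shPQBP1. Its level upon knockdown was 52.1% of the control level (log2 fold change -0.94 with standard error 0.05, limma-adjusted p = 0.00239). MT-RNR2 (ENSG00000210082, chrM:1671-3229), the 16S rRNA of the large subunit, had 5240, 5250 and 5614 FPKM with shNC and 3183, 3246 and 3006 FPKM with shPQBP1. This was 58.6% of the control level (log2 fold change -0.77 with standard error 0.06, limma-adjusted p = 0.00473). For both rRNAs the groups were far apart compared with the spread between samples, and the exact permutation test gave p = 0.1, the smallest that 3 samples against 3 allow.

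The 2 rRNAs did not change equally. The log2 ratio of MT-RNR2 to MT-RNR1 was 1.39, 1.48 and 1.47 with shNC and 1.64, 1.64 and 1.58 with shPQBP1, so the 12S rRNA was lower by more than the 16S rRNA in every shPQBP1 sample. A ratio within a sample does not depend on the scaling of that sample. The rRNAs relative to the heavy-strand mRNAs, as the difference of mean log2 FPKM, were at -0.87 ± 0.06 with shNC and at -1.43 ± 0.02 with shPQBP1 (SD, n = 3 each), again without overlap. In fragments, the rRNAs made up 12.4% to 13.7% of the mitochondrial total with shNC and 9.59% to 9.65% with shPQBP1.

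The values of nuclear RNAs that lack a poly(A) tail stand beside these results. Of RN7SK, RN7SL1, RN7SL2, RMRP and RPPH1, 3 were tested and 1 was called. RN7SK, the 7SK small nuclear RNA, fell with a log2 fold change of -3.16 (limma-adjusted p = 0.0184). RN7SL1 and RN7SL2, the RNAs of the signal recognition particle, had log2 fold changes of -0.24 and -0.49 with overlapping groups. The summed FPKM of the 5 RNAs was 13.7 to 30.1 with shNC and 11.3 to 13.2 with shPQBP1. This sum includes RN7SK, which had 9.07, 5.79 and 7.35 FPKM with shNC and 0.46, 1.37 and 0.59 FPKM with shPQBP1. The groups overlapped for RN7SL1, RN7SL2, RMRP and RPPH1, so the sum does not show a fall shared by the 5 RNAs. Whether the capture of RNA without a long tail took part in the rRNA and tRNA values was not tested.

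The 13 mRNAs were all lower in mean, with a median log2 fold change of -0.30, and 3 of them, all for complex I, passed the test. Complex I, the NADH dehydrogenase, takes 7 subunits from the mitochondrial genome. MT-ND2 (ENSG00000198763, chrM:4470-5511) had 6706, 6084 and 6851 FPKM with shNC and 4357, 4505 and 4585 FPKM with shPQBP1 (log2 fold change -0.55 with standard error 0.06, limma-adjusted p = 0.0154). MT-ND1 (ENSG00000198888, chrM:3307-4262) had 6095, 5580 and 5959 FPKM with shNC and 4377, 4705 and 4348 FPKM with shPQBP1 (log2 fold change -0.39, limma-adjusted p = 0.0282). MT-ND3 (ENSG00000198840, chrM:10059-10404) had 5566, 4597 and 5223 FPKM with shNC and 3809, 3799 and 3412 FPKM with shPQBP1 (log2 fold change -0.48, limma-adjusted p = 0.0485). In these 3 mRNAs the lowest control sample lay above the highest knockdown sample. Under quantile normalization the log2 fold change of MT-ND1 was -0.020 (limma-adjusted p = 0.542, 0.0168 to 0.542 over its alternatives) and that of MT-ND3 was -0.043 (limma-adjusted p = 0.481, 0.0310 to 0.481 over its alternatives), and neither was called. MT-ND3 kept its call in 6 of 17 alternatives and in none that left out a sample.

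The other complex I mRNAs did not pass the test. The control values of MT-ND5 and MT-ND6 were spread widely, while MT-ND4 and MT-ND4L had narrow groups and small differences. MT-ND5 (chrM:12337-14148) had 2617, 2188 and 2712 FPKM with shNC and 1792, 1909 and 1838 FPKM with shPQBP1 (log2 fold change -0.43, limma-adjusted p = 0.0615). MT-ND6 (chrM:14149-14673), the only mRNA of the light strand, had 3411, 2481 and 3379 FPKM with shNC and 2140, 2069 and 2037 FPKM with shPQBP1 (log2 fold change -0.55, limma-adjusted p = 0.0781). The log2 fold change of MT-ND6 was as large as that of MT-ND2, but its standard error was 0.13 against 0.06, and shNC sample 2 lay apart from the other control samples. MT-ND4 (chrM:10760-12137) and MT-ND4L (chrM:10470-10766), which are carried on a shared mRNA, had the smallest differences of all mRNAs, with log2 fold changes of -0.09 and -0.13 (limma-adjusted p = 0.294 and 0.249). MT-ND4 had 5732, 5360 and 5690 FPKM with shNC and 5144, 5317 and 5280 FPKM with shPQBP1, so that the groups were separate but nearly touched. Its difference changed sign to 0.02 when each sample was rescaled to the same total, a setting under which the median of all genes was 0.13, and to 0.24 under quantile normalization, where it was called higher.

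None of the mRNAs of the other complexes passed the test. MT-CO1, MT-CO2 and MT-CO3 encode the catalytic core of cytochrome c oxidase, complex IV. MT-CO3 had 11673, 10363 and 10914 FPKM with shNC and 8739, 9153 and 7969 FPKM with shPQBP1 (log2 fold change -0.35, limma-adjusted p = 0.0609). MT-CO1 was the only mRNA whose groups overlapped, with 9481, 7987 and 8907 FPKM with shNC and 8293, 7688 and 6842 FPKM with shPQBP1 (log2 fold change -0.21, limma-adjusted p = 0.242). MT-CO2 had 7178, 6729 and 6888 FPKM against 5728, 6130 and 6606 FPKM (log2 fold change -0.17, limma-adjusted p = 0.186). MT-CYB, the cytochrome b of complex III, had 3750, 3575 and 3808 FPKM with shNC and 3214, 3321 and 3296 FPKM with shPQBP1, a small difference in narrow groups (log2 fold change -0.18, limma-adjusted p = 0.107). Under quantile normalization the differences of MT-CO2 and MT-CYB changed sign to 0.03 each, and those of MT-CO1 and MT-CO3 vanished.

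MT-ATP8 and MT-ATP6, subunits of ATP synthase on a shared mRNA, had very different FPKM values. MT-ATP8 was the row with the highest mean FPKM in the table, with 19400, 16436 and 18173 FPKM with shNC and 14482, 15987 and 13541 FPKM with shPQBP1. MT-ATP6 had 2316, 2178 and 2264 FPKM with shNC and 1917, 2040 and 1743 FPKM with shPQBP1. Their log2 fold changes were alike, at -0.30 and -0.25 (limma-adjusted p = 0.124 and 0.119). The genes share 46 bases and MT-ND4L and MT-ND4 share 7, so the split of reads within each pair is uncertain. The shared bases are in capitals below, with 15 bases on either side.

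MT-ATP8 and MT-ATP6 overlap (chrM:8512-8587, plus strand): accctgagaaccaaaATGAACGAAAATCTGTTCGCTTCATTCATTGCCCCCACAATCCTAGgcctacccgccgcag
MT-ND4L and MT-ND4 overlap (chrM:10745-10781, plus strand): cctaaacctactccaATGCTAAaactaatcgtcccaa

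**Figure D3:**
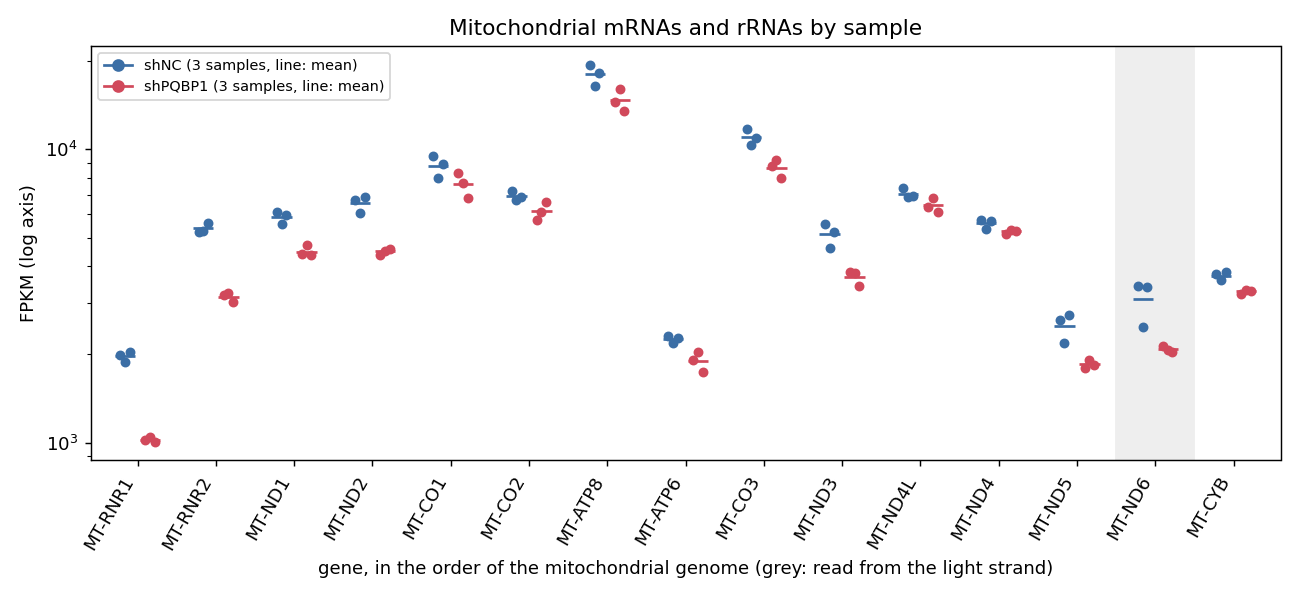
FPKM (log axis) of the 13 mitochondrial mRNAs and 2 rRNAs in each sample, in genome order, with lines at the group means and grey behind the light-strand gene MT-ND6. The rRNAs show the widest gaps between groups, MT-RNR1 at 1968 against 1024 FPKM in mean, and MT-CO1 is the gene whose groups overlap.

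Within the mRNA pool the balance between genes differed between the groups. MT-ND2 made up 7.58 ± 0.233% of the summed FPKM of the 13 mRNAs with shNC and 6.37 ± 0.357% with shPQBP1. MT-ND4 made up 6.48 ± 0.194% and 7.45 ± 0.310%, and MT-ND4L made up 8.16 ± 0.321% and 9.14 ± 0.155% (SD, n = 3 each). The groups did not overlap for these genes. They were also apart for MT-ND1, MT-ND3, MT-ND5 and MT-ND6, whose shares were lower with shPQBP1, and for MT-CYB, whose share was higher. The shares of MT-ATP8, MT-ATP6, MT-CO1, MT-CO2 and MT-CO3 overlapped. The log2 ratio of MT-ND4 to MT-ND5, 2 complex I mRNAs of the same precursor, was 1.13, 1.29 and 1.07 with shNC and 1.52, 1.48 and 1.52 with shPQBP1.

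The mRNAs were also compared by the end of their coding sequence. In 6 of the 13 genes the last codon is incomplete and the stop codon is made by the added adenosines, and in 7 it is complete. The median log2 fold change was -0.37 in the former, with a range from -0.55 to -0.09, and -0.25 in the latter, with a range from -0.55 to -0.13. The ranges thus overlapped, while the called mRNAs, MT-ND1, MT-ND2 and MT-ND3, all had an incomplete last codon. Whether the end of the gene goes with the size of the difference was not tested. The ends of 4 incomplete genes, among them those with the largest and the smallest difference, and of MT-ND6 are shown with the last codon, or what is there of it, in capitals.

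MT-ND2 end and the start of the next gene (chrM:5488-5523, plus strand): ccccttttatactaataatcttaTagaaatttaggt
MT-ND1 end and the start of the next gene (chrM:4239-4274, plus strand): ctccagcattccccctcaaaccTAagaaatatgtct
MT-ND4 end and the start of the next gene (chrM:12114-12149, plus strand): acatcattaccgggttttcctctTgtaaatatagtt
MT-CYB end and the start of the next gene (chrM:15864-15899, plus strand): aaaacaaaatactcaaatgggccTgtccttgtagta
MT-ND6 end and the bases after it (chrM:14137-14172, minus strand): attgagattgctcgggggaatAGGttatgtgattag

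The MT-ND6 RNA is also unlike the others in composition. It is 35.6% G and 7.05% C, whereas MT-ND5, its neighbour on the opposite strand, is 10.6% G and 34.3% C. Relative to the heavy-strand mRNAs, MT-ND6 was at -0.87, -1.17 and -0.84 on the log2 scale with shNC and at -1.17, -1.28 and -1.20 with shPQBP1. The values of shNC sample 2 and shPQBP1 sample 1 nearly met.

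The tRNA rows held the largest and the smallest differences of the mitochondrial genome. Their genes are 59 to 75 bases long, and a fragment that covers them can also cover a neighbouring gene, so their FPKM values may hold precursor RNA as well as mature tRNA. MT-TF (ENSG00000210049, chrM:577-647), the phenylalanine tRNA at the start of the heavy-strand transcript, had 631, 598 and 657 FPKM with shNC and 157, 180 and 173 FPKM with shPQBP1. It fell to 27.0% of the control level (log2 fold change -1.89 with standard error 0.08, limma-adjusted p = 0.00112). MT-TV (ENSG00000210077, chrM:1602-1670), the valine tRNA between the rRNAs, fell from 288 ± 19.0 to 128 ± 0.807 FPKM (SD, n = 3 each) (log2 fold change -1.17, limma-adjusted p = 0.00251). MT-TT (ENSG00000210195, chrM:15888-15953), the threonine tRNA at the far end of the heavy-strand transcript, fell from 474, 402 and 483 to 231, 238 and 216 FPKM (log2 fold change -0.99, limma-adjusted p = 0.00862). The tRNAs with the largest falls thus came from both ends of the transcript.

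MT-TF fell more than the rRNA that follows it with no base between. The log2 ratio of MT-TF to MT-RNR1 was -1.66, -1.65 and -1.63 with shNC and -2.71, -2.53 and -2.54 with shPQBP1. The control samples lay close together on this scale, far above the knockdown samples. MT-TV relative to MT-RNR1 was at -2.87, -2.73 and -2.71 with shNC and at -3.01, -3.02 and -2.98 with shPQBP1, a smaller shift that also left the groups apart.

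The other heavy-strand tRNAs were lower as well. All 14 had every shPQBP1 sample below every shNC sample, and 8 of the 14 were called, with a median log2 fold change of -0.85 and a range from -1.89 to -0.38. MT-TL1, the leucine tRNA between MT-RNR2 and MT-ND1 and the heavy-strand tRNA with the highest level, had 924, 969 and 983 FPKM with shNC and 628, 637 and 579 FPKM with shPQBP1 (log2 fold change -0.64, limma-adjusted p = 0.00983). MT-TW, MT-TM, MT-TI and MT-TD fell with log2 fold changes of -0.96, -0.94, -0.86 and -0.84. MT-TK, MT-TH, MT-TG, MT-TS2, MT-TR and MT-TL2 were not called, with log2 fold changes from -0.85 for MT-TK to -0.38 for MT-TL2. The 12 heavy-strand mRNAs had a median of -0.27, so the tRNA rows of that strand had the lower median. The difference of mean log2 FPKM between the heavy-strand tRNAs and mRNAs was -4.41 ± 0.12 with shNC and -4.96 ± 0.07 with shPQBP1.

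MT-TL1 with its neighbours shows the spacing of this segment, with the tRNA gene in capitals.

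MT-TL1 between MT-RNR2 and MT-ND1 (chrM:3210-3326, plus strand): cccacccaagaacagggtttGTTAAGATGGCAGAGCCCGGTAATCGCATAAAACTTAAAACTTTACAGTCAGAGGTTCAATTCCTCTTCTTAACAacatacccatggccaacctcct

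The light-strand tRNAs fell into unlike sets. MT-TA, MT-TN, MT-TC and MT-TY, for alanine, asparagine, cysteine and tyrosine, lie side by side and had the 4 highest tRNA levels. MT-TN had 2222, 1637 and 1949 FPKM with shNC and 1823, 1718 and 1485 FPKM with shPQBP1, and MT-TC had 1990, 1564 and 1782 FPKM against 1682, 1664 and 1388 FPKM. MT-TY had 1505, 1239 and 1411 FPKM with shNC and 1300, 1264 and 1088 FPKM with shPQBP1, and MT-TA had 1199, 841 and 1035 FPKM against 943, 891 and 790 FPKM. The groups overlapped in all 4, the log2 fold changes lay between -0.22 and -0.17, and the limma-adjusted p lay between 0.306 and 0.389. Under quantile normalization they lay at 0.041, 0.03, 0.15 and 0.079 for MT-TA, MT-TN, MT-TC and MT-TY. MT-TP, for proline, was the only gene with a positive log2 fold change, at 0.02, with 489, 391 and 424 FPKM with shNC and 415, 447 and 455 FPKM with shPQBP1.

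Of the remaining light-strand tRNAs, MT-TE and MT-TQ passed the test and MT-TS1 did not. MT-TE, the glutamate tRNA next to MT-ND6, fell from 542 ± 81.6 to 329 ± 11.5 FPKM (log2 fold change -0.71, limma-adjusted p = 0.0358). MT-TQ, for glutamine, fell from 53.3 ± 3.68 to 31.2 ± 3.40 FPKM (log2 fold change -0.78, limma-adjusted p = 0.0235). MT-TS1, at 6.64 to 15.6 FPKM the tRNA with the lowest level, had a log2 fold change of -0.63 and overlapping groups. Whether reads were counted by strand is not stated, so RNA of a light-strand gene and heavy-strand RNA that runs across it cannot be told apart, and MT-TQ shares 3 bases with MT-TI.

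**Figure D4:**
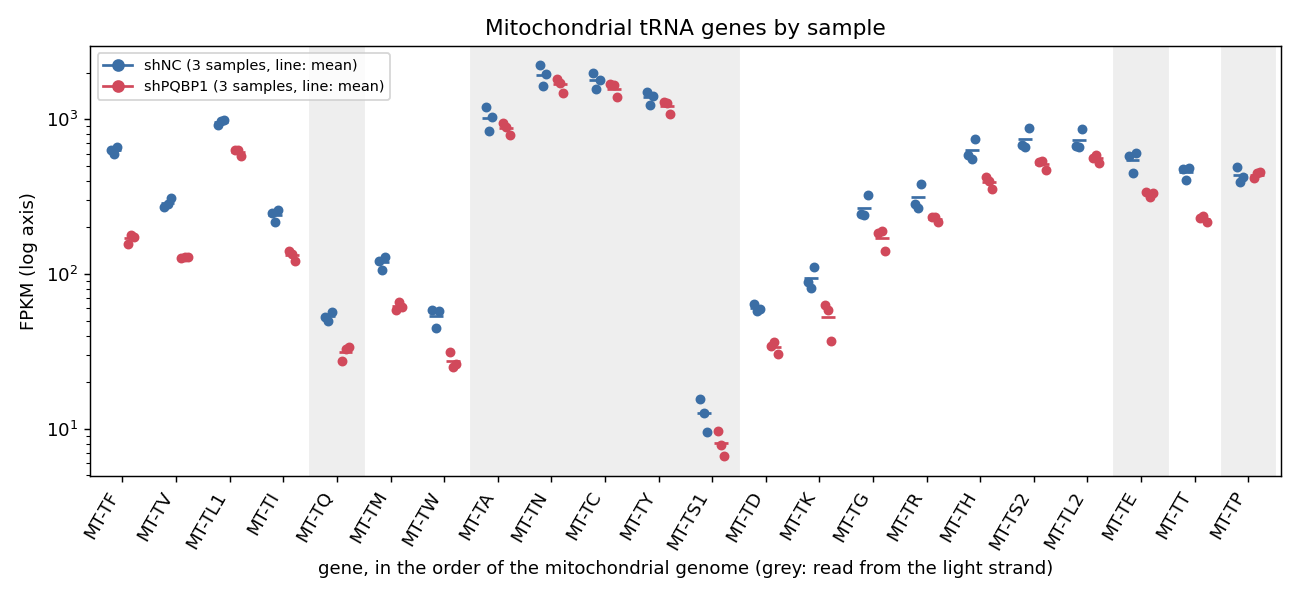
FPKM (log axis) of the 22 mitochondrial tRNA genes in each sample, in genome order, with lines at the group means and grey behind light-strand genes. The 14 heavy-strand genes show separate groups, while MT-TA, MT-TN, MT-TC, MT-TY, MT-TS1 and MT-TP show overlapping ones.

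By strand, 13 of 28 heavy-strand and 2 of 9 light-strand genes were called lower, with every shPQBP1 sample below every shNC sample in 27 and 3 of them. The light-strand tRNAs relative to the heavy-strand tRNAs, as the difference of mean log2 FPKM, were at 0.53 ± 0.18 with shNC and at 1.02 ± 0.03 with shPQBP1 (SD, n = 3 each), and the groups did not overlap. Relative to the heavy-strand mRNAs, the light-strand tRNAs overlapped between the groups, at -3.87 ± 0.09 and -3.94 ± 0.06.

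**Figure D5:**
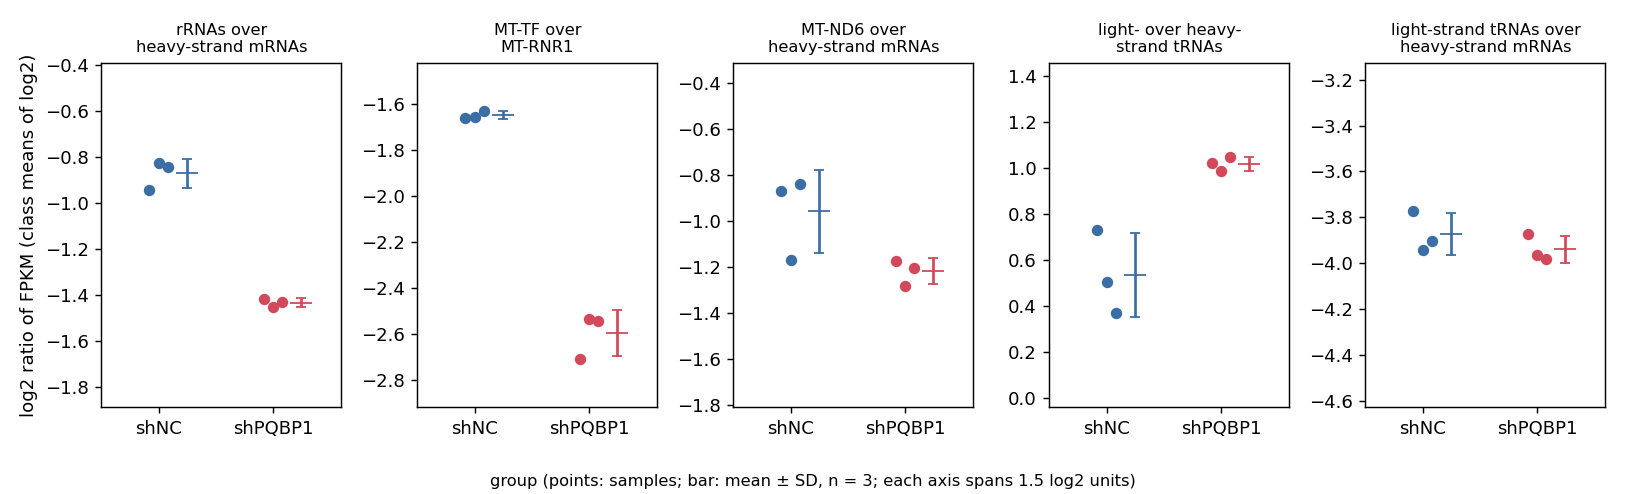
Log2 ratios of FPKM within each sample (points) with mean ± SD (n = 3 per group) for rRNAs over heavy-strand mRNAs, MT-TF over MT-RNR1, MT-ND6 over heavy-strand mRNAs, light-strand over heavy-strand tRNAs, and light-strand tRNAs over heavy-strand mRNAs, each axis spanning 1.5 log2 units. The first panel drops from -0.87 to -1.43 in mean and the second from -1.65 to -2.59, while the last shows overlapping groups.

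The size of the difference was also set against position, level, length and GC content. All 10 heavy-strand genes before MT-CO1 were called, with a median log2 fold change of -0.90, and 3 of the 18 from MT-CO1 onwards were called, with a median of -0.41. The cut at MT-CO1 was not among the planned comparisons. The genes on its sides differ in RNA class, as both rRNAs lie before it. Across the 28 heavy-strand genes the log2 fold change was closer to 0 for genes with a higher mean FPKM with shNC (Spearman's rho = 0.74), for longer genes (rho = 0.526), for genes further along the transcript (rho = 0.477) and for genes of higher GC content (rho = 0.446). These are descriptions across genes that share libraries and reads, and level, length and RNA class go together among them. Among the 13 mRNAs alone, rho was 0.258 with level and 0.088 with the order along the genome.

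A single control sample lay low across the mitochondrial genome. Of the 37 genes, 33 had their lowest control value in shNC sample 2. Without that sample, all 37 genes had a negative log2 fold change and 14 were called, 12 of them also called with every sample kept.

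The nuclear genome holds copies of mitochondrial sequence that can draw reads from these genes. Of 66 rows named as such copies, 7 were tested, none was called by limma after adjustment, and 2 were under 0.05 before it. Of all 11413 genes tested, 2689 were under 0.05 before adjustment. The log2 fold change was negative in 6 of the 7 tested copies, and in 5387 of all genes tested. In 3 of the 7 every shPQBP1 sample lay below every shNC sample, against 17.1% of all genes tested. MTATP6P1, 681 bases with 10 differences from MT-ATP6 (98.5% identity), had 1575, 1530 and 1538 FPKM with shNC and 1293, 1311 and 1205 FPKM with shPQBP1 (log2 fold change -0.29, limma-adjusted p = 0.0537). Such values were of the same order as those of MT-ATP6 itself, and the split of reads between the gene and its copy is uncertain. MTND2P28 (98.4% identity with MT-ND2) had 308 to 656 FPKM and MTCO1P12 (98.6% identity with MT-CO1) had 62.8 to 164 FPKM over the 6 samples, both with overlapping groups. In each group both were highest in sample 2 and lowest in sample 3.

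Nuclear genes that serve mitochondrial RNA showed no common direction. Of 57 tested genes in 4 lists, 2 fell and none rose at a limma-adjusted p under 0.05, against 1.18% of all genes tested that fell and 1.73% that rose. At an unadjusted p under 0.05 there were 10 lower and 9 higher, and over all 11413 genes tested 2689 in either direction. The median log2 fold change of the 57 genes was 0.02. Among the 17 genes of mitochondrial transcription and replication, TOP1MT, the mitochondrial type I topoisomerase, fell from 3.41, 3.12 and 2.96 to 2.15, 2.14 and 2.16 FPKM (log2 fold change -0.53, limma-adjusted p = 0.0476). Among the 15 genes of tRNA and rRNA modification, MRM3, a methyltransferase of the 16S rRNA, fell from 13.7 ± 1.12 to 9.26 ± 0.359 FPKM (log2 fold change -0.55, limma-adjusted p = 0.0341). Neither gene was called without shNC sample 2 or 3 or without any of the shPQBP1 samples, when the count over the 57 genes was 0.

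POLRMT, TFAM and TFB2M, which start and carry out mitochondrial transcription, did not pass the test. POLRMT, the mitochondrial RNA polymerase, had 4.99, 4.17 and 4.05 FPKM with shNC and 3.40, 3.78 and 3.20 FPKM with shPQBP1 (log2 fold change -0.34, limma-adjusted p = 0.166). TFAM, which packs mitochondrial DNA and starts its transcription, had a log2 fold change of 0.06 with overlapping groups. TFB2M, the other initiation factor, had 0.27 (limma-adjusted p = 0.158). POLRMT was lower and TFB2M was higher in every shPQBP1 sample than in every shNC sample. POLRMT, TFAM and TFB2M are named for their role, with their values known. Of the 18 tested genes of RNA processing and decay, none was called, and those with the smallest p were FASTKD3 (log2 fold change 0.43, limma-adjusted p = 0.0608), FASTKD5 (-0.23) and the CCA-adding enzyme TRNT1 (0.60). LRPPRC, which with SLIRP stabilises mitochondrial mRNAs, had 9.68, 17.2 and 16.8 FPKM with shNC and 18.3, 15.7 and 17.9 FPKM with shPQBP1. Of the 7 tested regulators of mitochondrial biogenesis none was called, and GABPA (0.64), ESRRA (-0.42) and NRF1 (-0.26) had the smallest p.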

How the data were processed

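Paired-end libraries of poly(A) RNA from HEY cells, 3 shNC and 3 shPQBP1, were sequenced on an Illumina instrument. The submitters' processing notes name HISAT2 2.2.0, SAMtools 1.9, StringTie 1.3.0 and build hg38. The annotation release and the FPKM settings are not given in the sources used here. The authors computed FPKM per gene and sample and deposited it with 2 decimals. Their own fold change, p and q columns (edgeR) were not used. The depth of each sample is unknown.

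Genes were tested on log2(FPKM + 0.1), which understates the change of low genes, in limma 3.58.1 (R 4.3.3) by a two-sided moderated fit with trended variance. The 11413 genes whose 6-sample mean reached 1 FPKM entered, with Benjamini-Hochberg adjustment over all of them. Single genes were also compared with a two-sided exact permutation test. Sums and ratios over mitochondrial genes are given without a test. Positions, strand and length are from GENCODE release 44, and copies were aligned with edlib in Python (version 3.11.15). The fit was tested on simulated data.

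The members, lists and ratios were chosen with earlier results of these data known. All mRNAs and rRNAs are named, as are the 5 tRNAs with the highest mean FPKM, list members that were called or else had the smallest p in their list, and the 3 highest copies. The other tRNAs with values were chosen after their values were seen. PRORP, CD3E and HBB were not matched. Alternatives were other scalings, filters and pseudocounts, no trend, a replicate block and leaving out each sample. Correcting for GC and length and the share of mapped fragments were added after seeing the data. The replicate numbers were not taken as pairs.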

Additional observations from a re-analysis of the deposited data

How the results depend on the processing

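Of 15 mitochondrial genes called, the count was 8 when low genes were kept and between 4 and 14 with 1 sample left out, and between 13 and 18 under the other settings except the replicate block. Over all genes, those called lower numbered 135 in the main fit, 63 when low genes were kept and 13 to 170 with 1 sample left out. With the replicate number as a block the mitochondrial count was 0, as was that of all genes. In that fit 27 mitochondrial genes had an unadjusted p under 0.05. In the main fit 29 of the 37 did, and 2689 of the 11413 genes tested. Same-numbered samples correlated at -0.19, -0.14 and -0.01 in their deviations across genes. Over the genes tested as a whole no pairing by number was thus seen, though 3 such values cannot decide whether a weak one exists. Single genes can differ from this. The nuclear copies MTND2P28, MTCO1P12 and MTND1P23 were highest in sample 2 and lowest in sample 3 of both groups. The other tested copies, among them MTATP6P1, had no such shared order. The median log2 fold change was -0.18 for the mRNAs, -0.74 for the rRNAs and -0.55 for the tRNAs with each sample rescaled to the same total, where that of all genes was 0.13, and -0.020 for the mRNAs and -0.60 for the rRNAs under quantile normalization, which by construction sets the top ranks, mostly mitochondrial genes, to the same values in each sample. Signs turned there for MT-TA (0.041), MT-TN (0.030), MT-TC (0.15), MT-TY (0.079), MT-CO2 (0.027), MT-ND4 (0.24, and 0.021 with rescaling) and MT-CYB (0.033), of which MT-ND4 and MT-TC were called higher. The differences of MT-CO1, MT-CO3 and MT-ATP8 vanished under quantile normalization. Correcting for GC and length put MT-TC at 0.043 and MT-TP at -0.025, and MT-TP lay between -0.055 (without shNC sample 2) and 0.107 with 1 sample left out, and the cause was not tested. The mitochondrial share of the summed FPKM differed by -5.08 percentage points, by -3.34 for the mRNAs alone and by -1.66 as a share of mapped fragments, which are other quantities. The ratios of rRNAs and of MT-ND6 to heavy-strand mRNAs, of MT-RNR2 to MT-RNR1 and of light-strand to heavy-strand tRNAs kept their direction under the alternatives run, and the other ratios were not rerun. The count in the machinery lists, 2, was 3 with each sample rescaled without the mitochondrial rows, 1 at a mean FPKM of at least 10, 0 with the block and 0 to 2 with 1 sample left out. The unknown depth limits what can be said of tRNA rows with low FPKM.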
